A study of Arabidopsis thaliana with 12 samples.

Results

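The genotype by heat interaction asks, gene by gene, whether atdamt1 mutant seedlings of Arabidopsis thaliana answered heat differently from wild type. For each gene the change from control to heat in WT was subtracted from the change from control to heat in atdamt1, so a value above 0 means a change more upward, or less downward, in atdamt1. All 12 of the 12 libraries entered, in 4 groups of 3: atdamt1 after 2.5 h of heat, atdamt1 in control at 0 h, WT after 2.5 h of heat and WT in control at 0 h. Every group was of the Col-0 ecotype, was 10 days old and was whole seedlings, from which poly(A) RNA was sequenced. The allele behind atdamt1, the temperature, the light and the time of day are not stated in the labels. No control kept for 2.5 h without heat is named, so heat and the passing of time cannot be told apart. Nothing states that replicates were grown apart, so each p-value is read against a library-to-library spread that may be technical.

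Heat unfolds proteins, which frees heat shock factors to bind inverted repeats of GAA in promoters, the heat shock elements, and to switch on chaperone genes. Small heat shock proteins hold unfolding proteins in a state from which ATP-driven chaperones such as HSP70 and HSP101 can refold them. Most other transcripts fall in share while these rise. The mutant is named after atDAMT1, and the series title links METTL4, of a family of adenine methyltransferases, to thermotolerance. A mutant that could not start, hold or end the heat program would show it as a difference between its response and that of WT.

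The locus of the METTL4 homolog was read first. AT1G19340 is a plus-strand gene of chromosome 1 (start 6684467, end 6687116 in TAIR10.1) with 8 exon blocks. It had 0.475, 0.146 and 0.404 RPKM (reads per kilobase of exon, corrected for library depth) in atdamt1 heat libraries and 0.808, 0.913 and 1.29 RPKM in atdamt1 control libraries. WT held 1.3, 1.33 and 1.54 RPKM after heat and 2.5, 3.01 and 3.1 RPKM in control. Every atdamt1 library was thus below every WT library of the same treatment. The heat change was -0.58 in atdamt1 and -0.69 in WT, in units of log2(RPKM + 1), and the difference was 0.12 ± 0.20 (SE, 95% interval -0.31 to 0.55, adjusted p = 0.979, limma). At values this low the added 1 compresses the change, and with 0.1 added in its place the difference was -0.39.

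The heat responses were alike across the transcriptome. Over the 17628 genes with at least 1 RPKM in at least 3 libraries, the heat change in atdamt1 tracked that in WT with Pearson r = 0.938 and Spearman rho = 0.911. The slope of the atdamt1 change on the WT change was 0.959. These are descriptions across genes, which are not independent replicates, and the 2 responses share no library. Without the organelle genes, 17510 nuclear genes gave r = 0.942 and a slope of 0.953. The sign of the change was the same for 16070 genes, or 91.2%.

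Calls showed the same likeness. A gene was called at adjusted p below 0.05 (limma, Benjamini-Hochberg over all genes tested). In atdamt1 1817 genes rose (10.3%) and 9913 fell (56.2%), and in WT 1659 rose (9.41%) and 9267 fell (52.6%). Values are shares of a library total, so these counts describe composition and not amounts of RNA, and fewer cells of a type cannot be told apart from less RNA per cell. Both genotypes called 9864 genes, which is 84.1% of the atdamt1 calls and 90.3% of the WT calls. With the share of chloroplast-encoded RPKM per library as a covariate, 5474 genes were called in atdamt1 and 10375 in WT, so the overlap and the counts that follow hold for the fit without it. Of the 9864 genes, 1363 rose in both, 8500 fell in both, and 2972 passed a 2-fold change in both. Calls in atdamt1 alone numbered 1866 and calls in WT alone 1062, but a gene called in 1 genotype and not in the other is not thereby shown to differ. Among the 4836 genes called in neither, the changes were small and r was 0.370.

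**Figure D1:**
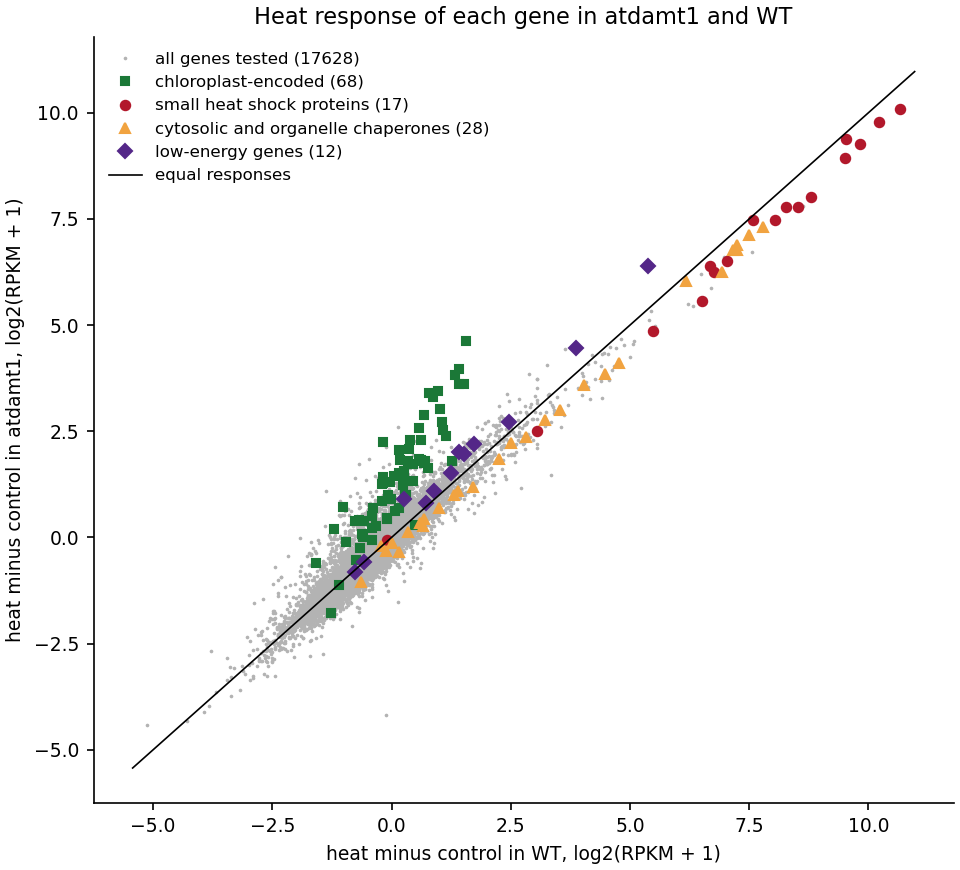
Heat minus control in atdamt1 (vertical axis) against heat minus control in WT (horizontal axis), both in log2(RPKM + 1), 1 point per gene for 17628 genes, with the line of equal responses. Points follow the line closely, the small heat shock proteins and chaperones at the upper right lie mostly just below it, the low-energy genes just above it, and the chloroplast-encoded genes to its upper left.

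No gene passed the test of the difference itself. Of 17628 genes, 0 were called (0%), and the smallest adjusted p was 0.979 (limma). At an unadjusted p below 0.05 there were 596 genes (3.38%), 241 above 0 (1.37%) and 355 below 0 (2.01%). With voom on the recovered reads 0 were called as well, and 518 had an unadjusted p below 0.05. The estimates had a median of -0.026 and an SD of 0.29, with quartiles of -0.17 and 0.12. Their median turned to 0.020 with upper-quartile scaling and to 0.062 when organelle genes were left out of the scaling. The side of 0 on which the estimates centre thus depends on the scaling. The median SE was 0.20. For 15120 genes (85.8%) the 95% interval of the difference lay inside ±1, so that for them a gap of 2-fold or more on the log2(RPKM + 1) scale was outside the interval. A gene standing alone at the median SE would need a difference of 1.68 to be called, and a gene with a smaller SE would need less.

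A count of single libraries gives a second view of where the responses parted. For each gene the 9 heat minus control differences between atdamt1 libraries were set against the 9 between WT libraries. All 9 of atdamt1 lay above all 9 of WT for 82 genes (0.465%), and below for 144 genes (0.817%). Estimates above 1 were held by 206 genes and below -1 by 25 genes. Of the 206, 43 were chloroplast-encoded, and 74 of the 206 had an unadjusted p below 0.05. Of the 25 below -1, 17 had an unadjusted p below 0.05. Genotype alone called 2 genes in control (0.0113%), AT1G75945 and AT3G01345, and 0 genes after heat (0%, with 1326 at an unadjusted p below 0.05 in limma, and 0 to 7 called under the alternatives, the most with array weights). The 2 calls in control were lost with a pseudocount of 0.1, no filter, upper-quartile scaling, the chloroplast-encoded share as a covariate or voom (0 in each), and numbered 0 to 2 when 1 library was left out, with 0 whenever that library was of atdamt1 control, WT heat or WT control.

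The strongest heat genes had the smaller estimates in atdamt1, though every one rose in both genotypes. In the 27 genes whose average rise over both genotypes passed 6, the median heat change was 6.88 in atdamt1 and 7.49 in WT. The estimate was below 0 in 27 of 27, with a median of -0.49, which turned to 0.27 when the chloroplast-encoded share entered the fit. Over all genes 54.6% were below 0. In the 31 genes with an average rise of 4 to 6 the median was -0.34, with 26 below 0, and in the 450 genes with a rise of 1 to 2 it was 0.12. None of the 27 passed an unadjusted p of 0.05 (0 of 27, against 3.38% over all genes). The median over the 27 was -0.19, with 22 below 0, without WT heat replicate 1, was -0.12 without atdamt1 heat replicate 3, and was -0.80 without atdamt1 heat replicate 2. These genes move together from library to library, so their count of signs amounts to few independent observations.

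**Figure D2:**
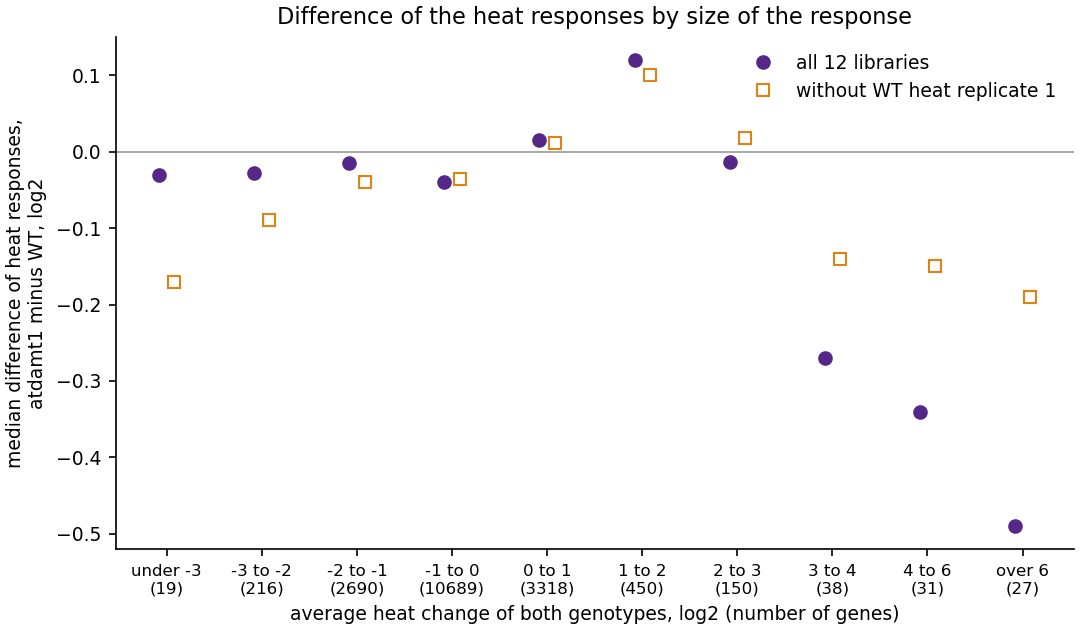
Median difference of the heat responses (vertical axis, atdamt1 minus WT, log2) in 10 classes of average heat change (horizontal axis, log2, with the number of genes), for all 12 libraries (filled circles) and without WT heat replicate 1 (open squares). With all libraries the median is -0.49 in the class over 6, and without that library it is -0.19.

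The small heat shock proteins showed the same pattern as a list. All 17 on the list were tested, 16 rose in atdamt1 and 16 rose in WT, and their median heat change was 7.47 in atdamt1 and 8.04 in WT. The difference was below 0 for 16 of 17 with a median of -0.54, against a median of -0.026 over all genes, and it turned to 0.29 in a fit that took the share of chloroplast-encoded RPKM per library as a covariate. Leaving out 1 library moved the median to -0.19 (WT heat replicate 1), -0.17 (atdamt1 heat replicate 3) or -0.92 (atdamt1 heat replicate 2). No member passed an unadjusted p of 0.05, and only 3 had an interval inside ±1.

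HSP17.6C, a cytosolic class I small heat shock protein, shows the spread behind this. It had 1200, 2118 and 687 RPKM in atdamt1 heat libraries and 0.189, 0 and 0.153 RPKM in atdamt1 control libraries. In WT it had 2848, 1293 and 1542 RPKM after heat and 0, 0.0503 and 0.253 RPKM in control. Replicate 2 of heated atdamt1 was above replicates 2 and 3 of heated WT, so the groups overlap, and the difference was -0.59 ± 0.50 (SE, 95% interval -1.68 to 0.51, adjusted p = 0.979, limma). HSP21, of the chloroplast, was listed at 0 in all 6 control libraries and held 40.5, 119 and 20.3 RPKM in heated atdamt1 against 209, 49.8 and 71.6 RPKM in heated WT. HSP18.5, which had the smallest p of the list, held 421, 467 and 285 RPKM in heated atdamt1 against 589, 414 and 442 RPKM in heated WT. Its control values were 60, 67.2 and 74 RPKM in atdamt1 and 53.7, 46.5 and 74.3 RPKM in WT, and the difference was -0.54 ± 0.30 (SE, 95% interval -1.19 to 0.12, adjusted p = 0.979, limma). HSP15.4 stood apart from its list, with 45.2, 25.9 and 35.9 RPKM in heated atdamt1 and 30.4, 35.8 and 49.5 RPKM in heated WT, levels that overlapped those in control.

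The promoter of HSP17.6C is shown because this gene had the largest heat change of the list in both genotypes. The 250 bases before its annotated start were read from the RefSeq genome TAIR10.1 at chr1:19980049-19980298, plus strand, 5′ to 3′, and capitals mark the only match to GAANNTTC, a minimal heat shock element.
HSP17.6C: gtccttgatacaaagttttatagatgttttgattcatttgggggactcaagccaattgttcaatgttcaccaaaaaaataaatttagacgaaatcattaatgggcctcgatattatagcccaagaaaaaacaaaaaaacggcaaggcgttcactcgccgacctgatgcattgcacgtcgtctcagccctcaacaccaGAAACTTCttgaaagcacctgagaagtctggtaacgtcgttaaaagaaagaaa
The match begins 53 bases before the gene start. In windows of 250 bases before to 50 after the start, read on both strands, GAANNTTC was held by 12 of the 27 strongest risers (44.4%) and by 5 of the 17 small heat shock proteins (29.4%), against 11.2% of 17509 promoters. TGGGCC was held by 14 of the 27 (51.9%), against 20% of all. A match describes the letters of the window and says nothing of binding.

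Chaperones that refold or disaggregate proteins showed the same tilt at a smaller size. Of 28 tested, 19 rose in atdamt1 and 21 rose in WT. The difference was below 0 for 27 of 28 (96.4%, against 54.6% of all genes). Its median was -0.39 and turned to 0.27 in the fit with that covariate. None of the 28 passed an unadjusted p of 0.05. Genes measured in the same libraries may vary together, so 27 of 28 is not a count of independent observations. HSP101, the disaggregase needed for acquired thermotolerance, changed by 6.88 in atdamt1 and 7.25 in WT. For HSP90.1, the inducible cytosolic HSP90, the changes were 7.13 in atdamt1 and 7.49 in WT. The HSP70-like gene HSP70T-2 had the smallest p of the list. It had 179, 311 and 111 RPKM in heated atdamt1 and 1.13, 1.62 and 1.58 RPKM in atdamt1 control, against 450, 202 and 234 RPKM in heated WT and 1.05, 1.39 and 1.4 RPKM in WT control. The heated libraries of the genotypes overlapped, and the difference was -0.69 ± 0.48 (SE, 95% interval -1.74 to 0.36, adjusted p = 0.979, limma). Without 1 library the median of the list ranged from -0.70 (atdamt1 heat replicate 2) to -0.083 (WT heat replicate 1), and was -0.11 without atdamt1 heat replicate 3.

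Factors that drive the program gave no common direction. Of 16 heat shock factors tested 10 were below 0, with a median of -0.073. This median turned to 0.0067 when the organelle genes were left out of the scaling and to 0.35 with the chloroplast covariate. Without 1 library it ranged from -0.20 to 0.11. HSFA2, the heat-induced factor that prolongs the response, changed by 7.81 in atdamt1 and 8.63 in WT, and HSFB1, a heat-induced repressor of class B, by 4.29 in atdamt1 and 4.21 in WT. HSFA1A, of the class that starts the response, had values of -0.71 in atdamt1 and -0.95 in WT. HSFA5 had the smallest p of the list, with a difference of 0.32 (95% interval -0.092 to 0.73, adjusted p = 0.979, limma). Of 10 further regulators 7 were below 0. Among them MBF1C, a coactivator needed for thermotolerance, changed by 6.61 in atdamt1 and 6.98 in WT, and DREB2A, an activator of HSFA3, by 5.98 in atdamt1 and 6.18 in WT.

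The heated libraries differed among themselves along with the heat genes. Averaged over the 17 small heat shock proteins, the log2(RPKM + 1) level was 8.51, 9.18 and 7.80 in heated atdamt1 and 9.66, 8.60 and 8.82 in heated WT. In control it was 1.49, 1.62 and 1.55 in atdamt1 and 1.68, 1.44 and 1.66 in WT. Chloroplast-encoded genes took 6.01%, 3.17% and 5.58% of the RPKM sum in heated atdamt1 and 0.628%, 4.05% and 0.39% in heated WT. In control libraries their share was 0.979%, 0.497% and 0.32% in atdamt1 and 1.07%, 0.613% and 0.394% in WT. In heated atdamt1 the library with the lowest chloroplast-encoded share, replicate 2, had the highest level of small heat shock proteins, and in heated WT the library with the highest share, also replicate 2, had the lowest. The opposite ends did not match, since the highest share in heated atdamt1 was in replicate 1 and the lowest level in replicate 3, and in heated WT the lowest share was in replicate 3 and the highest level in replicate 1. Replicate 2 of heated WT aside, the share was high in heated atdamt1 and low elsewhere, so it nearly follows the contrast. The fit with it as a covariate therefore cannot separate the share from the difference of the heat responses. The part of either measure in the other was not tested. Depth was 21720000 to 23519000 reads per library, so it differed little between groups.

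**Figure D3:**
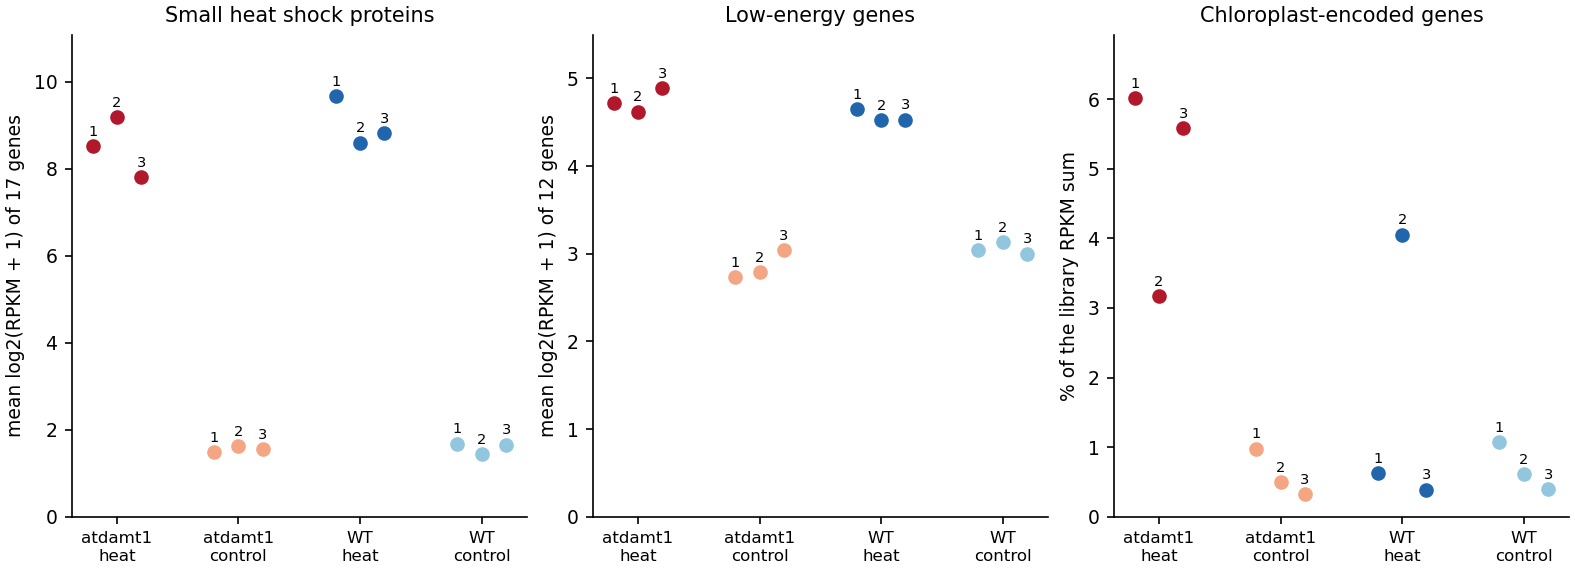
Level of the 17 small heat shock proteins and of the 12 low-energy genes (mean log2(RPKM + 1)) and share of chloroplast-encoded genes in the RPKM sum (%), 1 point per library with its replicate number. Heated atdamt1 and heated WT overlap for the small heat shock proteins (7.80 to 9.18 and 8.60 to 9.66), and replicate 2 of heated WT lies among heated atdamt1 for the chloroplast-encoded share.

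Chloroplast-encoded transcripts had the highest median difference of the lists. Of 133 loci 68 were tested, 46 rose in atdamt1 and 3 rose in WT. Since poly(A) RNA was sequenced, values of organelle genes describe only the organelle RNA that entered such libraries. Whether they follow the level of organelle transcripts was not tested. The difference was above 0 in 65 of 68 with a median of 1.20, and 35 had an unadjusted p below 0.05 (51.5%, against 1.37% of all genes above 0), which is 14.5% of the 241 genes of that kind. None was called, and replicate 2 of heated WT lay with heated atdamt1. Chloroplast-encoded genes move together from library to library, so these counts amount to few independent observations. The median was 0.57 with a pseudocount of 5 and 1.60 with 0.1, and 0.92 to 1.61 without 1 library. With their own share in the fit it was -0.052, which says little, since that share is built from these same genes. The mitochondrial-encoded genes, of which 48 of 50 rose in atdamt1 and 49 of 50 in WT, had a median difference of -0.010, whose sign turned under several scalings.

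Genes of energy shortage formed the nuclear list with the highest median. Such genes are typically switched on in darkness or sugar starvation through SnRK1, the plant kinase that senses low energy. This need not hold for every member of the list. Of 12 tested, 10 rose and 2 fell in atdamt1, and 9 rose and 2 fell in WT. The difference was above 0 for 10 of 12 (83.3%, against 45.4% of all genes) with a median of 0.36. Of the 12, 3 had an unadjusted p below 0.05, all above 0, against 1.37% of all genes. Members of a list were measured in the same 12 libraries and may vary together, so these are not counts of independent observations. The list was also chosen with earlier results of these data known. The median stayed above 0 under each alternative, at 0.30 to 0.42 without 1 library and at 0.23 to 0.46 otherwise, the lowest with a pseudocount of 5. Averaged over the list, the log2(RPKM + 1) level was 4.72, 4.62 and 4.89 in heated atdamt1 and 4.65, 4.52 and 4.53 in heated WT, groups that overlap. In control the group means were 2.85 in atdamt1 and 3.06 in WT, so the order of the genotypes was the other way round without heat.

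AKINBETA1, annotated as a beta subunit of SnRK1, had the smallest p of that list. It had 74.6, 76.6 and 75.5 RPKM in heated atdamt1 and 15.6, 14.4 and 17.6 RPKM in atdamt1 control. In WT it had 60.9, 60.7 and 61.1 RPKM after heat and 17.2, 18.3 and 18 RPKM in control. Heated atdamt1 was above heated WT in every library, the responses did not overlap, and the difference was 0.47 ± 0.12 (SE, 95% interval 0.21 to 0.73, adjusted p = 0.979, limma). ASN1, the asparagine synthetase induced by darkness, was named after its values were seen. It had 114, 101 and 133 RPKM in heated atdamt1 and 0.279, 0.452 and 0.435 RPKM in atdamt1 control, against 96.8, 66.3 and 65.7 RPKM in heated WT and 0.62, 1.58 and 0.498 RPKM in WT control. Both arms contributed, since every atdamt1 library was above every WT library after heat and below every WT library in control. The difference was 1.02 ± 0.29 (SE, 95% interval 0.38 to 1.66, adjusted p = 0.979, limma).

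The promoters of ASN1 and AKINBETA1 are shown because these were the members whose responses did not overlap. Each is the 250 bases before the annotated start in the RefSeq genome TAIR10.1, 5′ to 3′, for ASN1 at chr3:17441432-17441681 on the minus strand and for AKINBETA1 at chr5:7205227-7205476 on the plus strand. Capitals mark CACGTG, the G-box bound by bZIP and bHLH factors, which the second sequence lacks.
ASN1: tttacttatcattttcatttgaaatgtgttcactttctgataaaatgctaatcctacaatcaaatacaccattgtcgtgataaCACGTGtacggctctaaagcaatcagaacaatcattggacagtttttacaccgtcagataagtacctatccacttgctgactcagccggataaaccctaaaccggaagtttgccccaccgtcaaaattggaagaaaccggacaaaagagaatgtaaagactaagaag
AKINBETA1: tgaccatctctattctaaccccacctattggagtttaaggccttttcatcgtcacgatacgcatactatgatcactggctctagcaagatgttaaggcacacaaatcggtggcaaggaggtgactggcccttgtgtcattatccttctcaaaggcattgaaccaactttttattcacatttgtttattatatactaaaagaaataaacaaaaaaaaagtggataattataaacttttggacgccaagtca
CACGTG was held by 2 of the 12 promoters of the list (16.7%), against 8.94% of all promoters, each read on both strands.

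Among the other members of that list, TPS8, a trehalose phosphate synthase family gene, changed by 1.96 in atdamt1 and 1.51 in WT, a difference of 0.45 ± 0.18 (SE, 95% interval 0.061 to 0.84, adjusted p = 0.979, limma). SEN1, a gene of dark-induced senescence, held 208, 136 and 224 RPKM in heated atdamt1 against 141, 104 and 97.4 RPKM in heated WT. Its heated libraries overlapped, and the difference was 0.60 ± 0.37 (SE, 95% interval -0.22 to 1.41, adjusted p = 0.979, limma). DIN2 and TPS5, the members that fell, had differences of -0.050 and -0.015.

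The clock list leaned the same way. Of 26 genes 18 were above 0 (69.2%, against 45.4% of all genes), with a median of 0.23. Only 1 had an unadjusted p below 0.05 (3.85%, against 3.38% of all genes), so the list was near the background in this respect. The median stayed above 0 under each alternative, at 0.13 to 0.33 without 1 library and 0.12 to 0.32 otherwise. It was 0.13 without WT control replicate 2, without WT heat replicate 1 and without atdamt1 heat replicate 3. CCA1 and LHY, the morning factors, had heat values of 1.71 and 0.59 in atdamt1 and of 1.09 and 0.076 in WT. GER3, a germin-like output of the clock, fell in both genotypes and was the list's member with the smallest p. It had 99.1, 76 and 130 RPKM in heated atdamt1 and 2203, 2171 and 2069 RPKM in atdamt1 control, against 43.9, 53.2 and 51.5 RPKM in heated WT and 1675, 1673 and 1935 RPKM in WT control. Its fall was less deep in each pairing of atdamt1 libraries than in any pairing of WT libraries, a difference of 0.70 ± 0.23 (SE, 95% interval 0.20 to 1.21, adjusted p = 0.979, limma). Since control was sampled at 0 h and heat at 2.5 h, the time of day differs between them in both genotypes.

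Genes of reactive oxygen and the ZAT zinc fingers leaned the other way. Of 17 tested 14 were below 0 (82.4%, against 54.6% of all genes), with a median of -0.26. Of the 17, 4 had an unadjusted p below 0.05, all below 0, against 2.01% of all genes. These too are not counts of independent observations. The median was -0.14 under quantile normalization, -0.15 when organelle genes were left out of the scaling and 0.0039 in the fit with the chloroplast covariate. FSD1, the iron superoxide dismutase that removes superoxide, had 871, 943 and 836 RPKM in heated atdamt1 and 969, 1006 and 816 RPKM in atdamt1 control. In WT it had 1155, 1098 and 1252 RPKM after heat and 964, 718 and 826 RPKM in control. It rose in WT, by 0.49, while its change in atdamt1 was -0.071, and the difference was -0.56 ± 0.18 (SE, 95% interval -0.96 to -0.16, adjusted p = 0.979, limma). ZAT7, a stress-induced zinc finger factor, changed by 3.29 in atdamt1 and 4.41 in WT, and its heated libraries overlapped (11.2, 19.7 and 10.3 RPKM in atdamt1, 37.3, 15.4 and 24.3 RPKM in WT). For ZAT10 the changes were 4.12 in atdamt1 and 4.78 in WT.

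**Figure D4:**
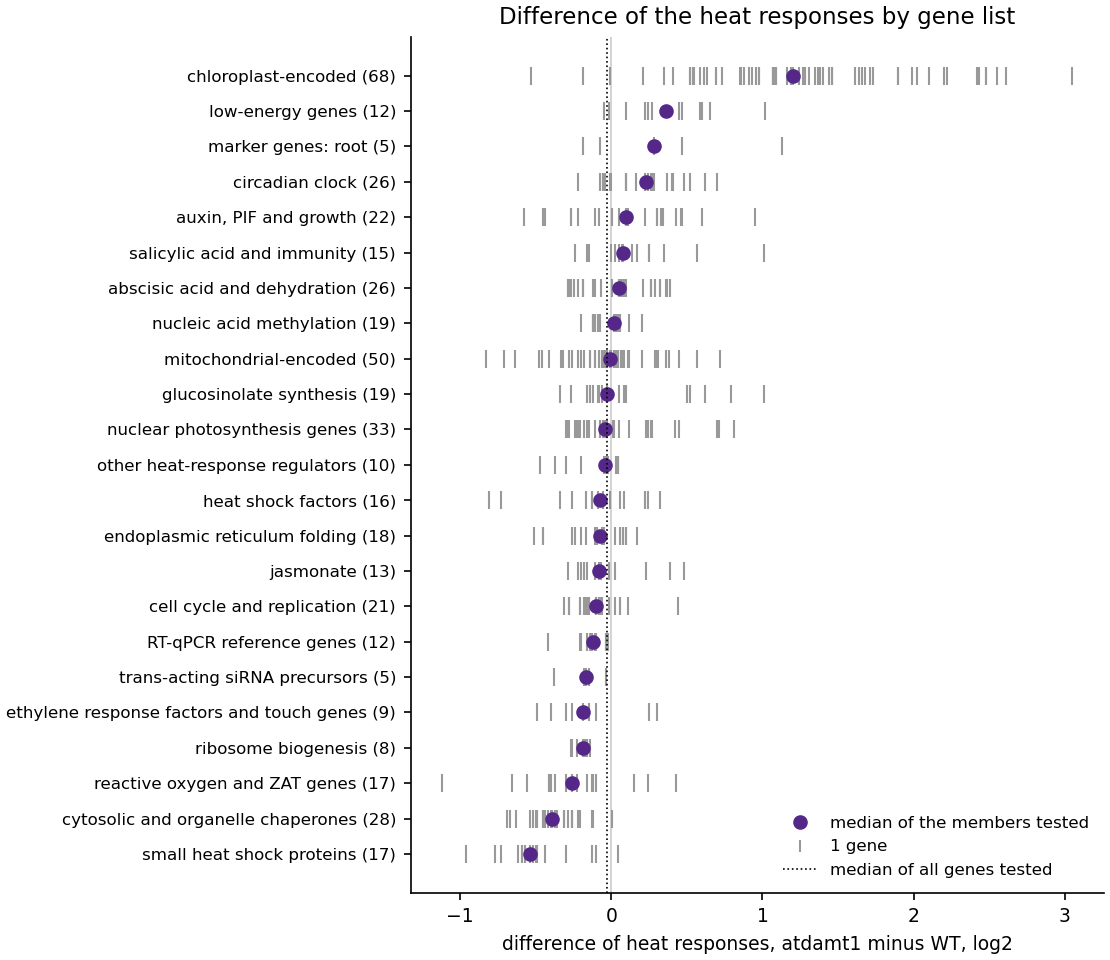
Difference of the heat responses (horizontal axis, atdamt1 minus WT, log2) for the members tested of each gene list (ticks, 1 per gene) with the list median (circles), ordered by median, and the median of all genes tested (dotted line, -0.026). Lists with more than 1 member tested are drawn, and those at the ends are the small heat shock proteins (-0.54) and the chloroplast-encoded genes (1.20).

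The remaining lists held no more than 1 member at an unadjusted p below 0.05. Of 33 nuclear photosynthesis genes 14 were above 0 and 19 below, and LHCB2.2, a light-harvesting protein, changed by 3.74 in atdamt1 and 3.04 in WT. The 18 genes of folding in the endoplasmic reticulum had a median of -0.077, and 17 of them fell in each genotype. That median was -0.16 to 0.0022 without 1 library and -0.14 to 0.12 under the other alternatives, the highest with the chloroplast covariate. All 5 trans-acting siRNA precursors fell in each genotype, by a median of 3.98 in atdamt1 and 3.83 in WT, and all 5 differences were below 0. Of 8 ribosome biogenesis genes 6 fell in each genotype, with a median difference of -0.19, and a value of -0.007 without WT control replicate 3. With the chloroplast covariate their median was 0.069 and all 8 were above 0. For 19 nucleic acid methylation genes, among them the RNA demethylase gene ALKBH9B with a difference of -0.20 ± 0.15 (SE), every interval lay inside ±1.

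Hormone and growth lists had medians between -0.19 and 0.10. The median was 0.053 for 26 abscisic acid and dehydration genes, 0.078 for 15 salicylic acid and immunity genes, -0.080 for 13 jasmonate genes, 0.10 for 22 auxin, PIF and growth genes and -0.19 for 9 ethylene response factors and touch genes. It was -0.030 for 19 glucosinolate synthesis genes and -0.10 for 21 genes of cell cycle and replication. Without 1 library the sign turned for abscisic acid (-0.17 to 0.25), jasmonate (-0.21 to 0.051), auxin (-0.12 to 0.35), glucosinolate (-0.23 to 0.14) and cell cycle genes (-0.26 to 0.10), and not for salicylic acid (0.012 to 0.29) or ethylene and touch genes (-0.38 to -0.022). CBP60G, an activator of salicylic acid synthesis, held 4.48, 6.69 and 11.1 RPKM in heated atdamt1 against 5.3, 2.72 and 2.78 RPKM in heated WT, groups that overlap, and its difference was 1.01 ± 0.46 (SE, 95% interval 0.0067 to 2.01, adjusted p = 0.979, limma). XTH22, a touch-induced enzyme that remodels xyloglucan in the wall, had 104, 97.3 and 79.4 RPKM in heated atdamt1 and 6.79, 7.11 and 7.37 RPKM in atdamt1 control. In WT it had 134, 108 and 120 RPKM after heat and 5.79, 6.44 and 5.7 RPKM in control. Every heated atdamt1 library was below every heated WT library while in control every atdamt1 library was above, and the difference was -0.58 ± 0.16 (SE, 95% interval -0.93 to -0.23, adjusted p = 0.979, limma).

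Markers of other organs gave little to set beside these values. Of 10 root markers 5 were tested, with a median difference of 0.28 (-0.072 with the chloroplast covariate), of 5 flower markers only SEP3 was tested (-1.23 ± 0.65, SE), and of 6 seed storage genes none reached the minimum. The 12 reference genes used in RT-qPCR had differences from -0.42 to -0.022, all below 0, with a median of -0.12 that turned to 0.030 under quantile normalization and 0.057 with the chloroplast covariate. Their intervals all lay inside ±1. GAPC2, a cytosolic glycolytic enzyme, was the lowest and its responses did not overlap. It held 455, 519 and 414 RPKM in heated atdamt1 and 587, 674 and 584 RPKM in atdamt1 control, against 574, 571 and 621 RPKM in heated WT and 604, 548 and 610 RPKM in WT control.

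Outside the lists, genes of varied roles had the smallest p-values above 0 at a mean of at least 5 RPKM in the highest group. None was called. AT2G15880, annotated as a leucine-rich repeat extensin of the cell wall, is a minus-strand gene of chromosome 2 (start 6917514, end 6920319 in TAIR10.1). It had 16.4, 17.1 and 19.6 RPKM in heated atdamt1 and 4.54, 3.8 and 6.07 RPKM in atdamt1 control, against 11, 12.3 and 14.7 RPKM in heated WT and 6.19, 9.48 and 7.85 RPKM in WT control. It rose in both genotypes, and no atdamt1 library overlapped WT of the same treatment, with a difference of 1.07 ± 0.24 (SE, 95% interval 0.54 to 1.60, adjusted p = 0.979, limma). UCC2, a uclacyanin (a small copper protein anchored at the cell surface), fell in WT and did not pass in atdamt1 (adjusted p = 0.0534, limma). It had 6.56, 6.25 and 10.8 RPKM in heated atdamt1 and 8.82, 12.6 and 19.7 RPKM in atdamt1 control, against 4.07, 5.88 and 3.12 RPKM in heated WT and 30.2, 20.6 and 33.7 RPKM in WT control. The order of the genotypes turned round between treatments, and the difference was 1.75 ± 0.42 (SE, 95% interval 0.84 to 2.66, adjusted p = 0.979, limma).

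AT1G19530 rose in both genotypes, with changes of 2.29 in atdamt1 and 0.94 in WT. The noncoding RNA AT3G06355 held 74.1, 110 and 79.5 RPKM in heated atdamt1 and 43.5, 39.8 and 41.2 RPKM in atdamt1 control, against 65.7, 57.3 and 45.8 RPKM in heated WT and 70.7, 56 and 44.4 RPKM in WT control. Its change was 1.05 in atdamt1 and -0.0086 in WT. For AT2G38820 the changes were 0.84 in atdamt1 and 0.21 in WT. AT1G09460, with a carbohydrate-binding X8 domain, was the only gene called in both genotypes in opposite directions and had the smallest p of all genes. It lay under the level of 5 RPKM set for naming and was singled out after its values were seen. It had 2.89, 3.2 and 3.69 RPKM in heated atdamt1 and 1.57, 2.33 and 2.16 RPKM in atdamt1 control, against 2.01, 3.06 and 2.79 RPKM in heated WT and 3.8, 5.13 and 3.85 RPKM in WT control. The change was 0.50 in atdamt1 and -0.54 in WT, a difference of 1.04 ± 0.22 (SE, 95% interval 0.56 to 1.52, adjusted p = 0.979, limma).

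At the same minimum of 5 RPKM, the smallest p-values below 0 belonged mostly to genes whose estimated fall was larger in atdamt1. AT1G68238, a protein of unknown function, is a plus-strand gene of chromosome 1 (start 25574381, end 25574835 in TAIR10.1). It had 5.37, 3.74 and 5.74 RPKM in heated atdamt1 and 32.5, 38.7 and 45.5 RPKM in atdamt1 control, against 11.2, 6.86 and 9.86 RPKM in heated WT and 26.2, 22.2 and 31.5 RPKM in WT control. It fell in both genotypes, the genotypes did not overlap in either treatment and stood in opposite order, and the difference was -1.31 ± 0.28 (SE, 95% interval -1.92 to -0.71, adjusted p = 0.979, limma). AT4G04880, of the adenosine/AMP deaminase family, held 4.67, 5.53 and 5.38 RPKM in heated atdamt1 against 7.56, 7.08 and 7.78 RPKM in heated WT. In control it held 11.3, 13.3 and 12.1 RPKM in atdamt1 and 11.3, 10.6 and 11 RPKM in WT, so the genotypes lay apart mainly after heat, with a difference of -0.60 ± 0.13 (SE, 95% interval -0.89 to -0.31, adjusted p = 0.979, limma). AT3G45050, AT4G19550 and AT3G15180 had differences of -0.49, -0.70 and -0.58.

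NEET, an iron-sulfur protein of plastids and mitochondria, differed from these in where the genotypes parted. It had 83.8, 75 and 79.9 RPKM in heated atdamt1 and 69.2, 87.4 and 70.3 RPKM in atdamt1 control, against 74, 74 and 88.1 RPKM in heated WT and 47.8, 38.1 and 49.7 RPKM in WT control. After heat the genotypes overlapped, and in control every atdamt1 library was above every WT library. It rose in WT, by 0.79, its change in atdamt1 was 0.078, and the difference was -0.71 ± 0.18 (SE, 95% interval -1.11 to -0.32, adjusted p = 0.979, limma).

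Of genes with a mean of at least 5 RPKM in the highest group, the 25 smallest p-values below 0 included enzymes of nitrogen assimilation. These were singled out after their values were seen. NIR1, the plastid nitrite reductase, held 61.9, 73.3 and 67.5 RPKM in heated atdamt1 and 201, 186 and 208 RPKM in atdamt1 control, against 76.3, 73.4 and 86.5 RPKM in heated WT and 172, 133 and 152 RPKM in WT control. Its difference was -0.60 ± 0.16 (SE, 95% interval -0.95 to -0.25, adjusted p = 0.979, limma). UPM1, which methylates the precursor of siroheme, the cofactor of nitrite reductase, had a difference of -0.78 ± 0.22 (SE, 95% interval -1.27 to -0.29, adjusted p = 0.979, limma). ASN2, an asparagine synthetase like ASN1, held 92.9, 91.4 and 80.7 RPKM in heated atdamt1 against 180, 101 and 146 RPKM in heated WT, and fell in both genotypes. In control it held 310, 283 and 249 RPKM in atdamt1 and 282, 197 and 218 RPKM in WT, with a difference of -0.93 ± 0.27 (SE, 95% interval -1.53 to -0.33, adjusted p = 0.979, limma). So ASN1, which rose, and ASN2, which fell, each had the larger estimated change in atdamt1.

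**Figure D5:**
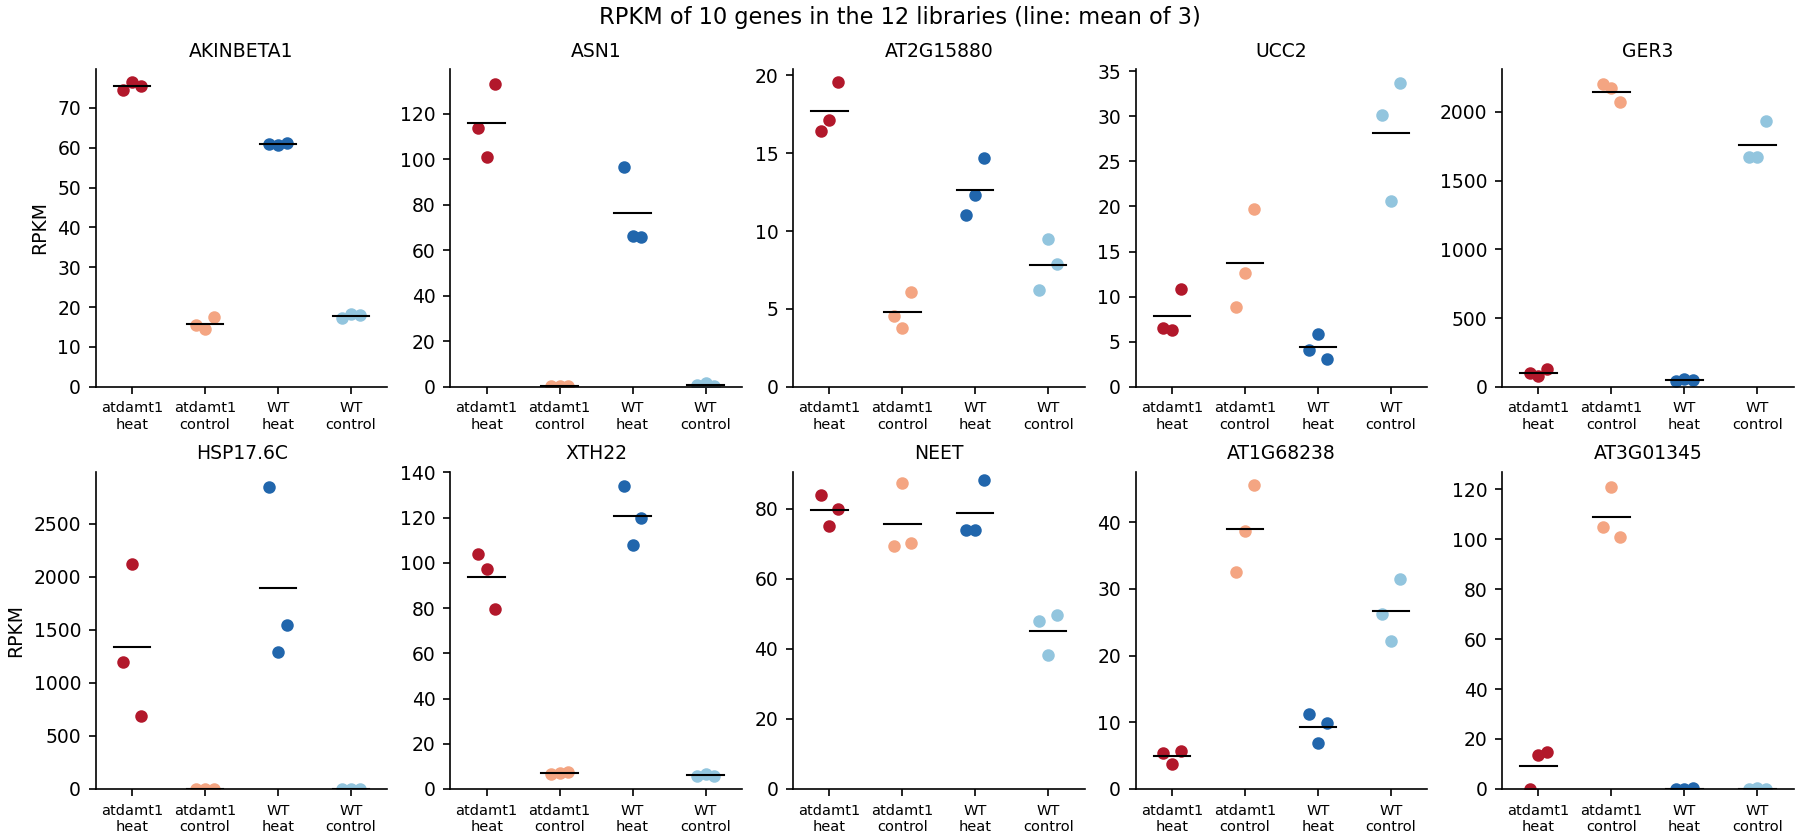
RPKM of 10 genes in the 12 libraries (points) with group means (lines), for atdamt1 heat, atdamt1 control, WT heat and WT control from left to right. The groups of heated libraries lie apart for AKINBETA1 and XTH22 and overlap for HSP17.6C and NEET, and AT3G01345 reaches 105, 121 and 101 RPKM in atdamt1 control.

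AT3G01345 had the estimate farthest from 0, and the genotypes already lay apart at this gene in control. Annotated only as an expressed protein, it is a plus-strand gene of chromosome 3 (start 129138, end 130749 in TAIR10.1) with 1 exon. It had 0, 13.4 and 14.7 RPKM in heated atdamt1 and 105, 121 and 101 RPKM in atdamt1 control, against 0.0277, 0 and 0.189 RPKM in heated WT and 0.171, 0.225 and 0.0848 RPKM in WT control. It was higher in atdamt1 than in WT in control by 6.57 (adjusted p = 0.0374, limma), and it fell with heat in atdamt1, by 4.17 (adjusted p = 0.000548, limma). WT was near 0 in both treatments, so a fall had no room there. The difference was -4.05 ± 1.09 (SE, 95% interval -6.44 to -1.67, adjusted p = 0.979, limma). Replicate 1 of heated atdamt1, at 0 RPKM, decided the error, and without it the difference was -2.75 (adjusted p = 0.000125, limma), the only call in any alternative fit of the interaction. The other gene called by genotype in control, AT1G75945, had a difference of -0.028 ± 0.32 (SE) and was higher in atdamt1 in both treatments, at 12.5, 19.9 and 11.2 RPKM in heated atdamt1 against 3, 3.71 and 3.21 RPKM in heated WT.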

How the data were processed

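The authors deposited RPKM values for 32833 genes in 12 libraries. The submitters' processing notes list STAR, DESeq2 and the build TAIR10 with no role or version. The kit keeps strand, per the labels' protocols, but neither the strand setting of the counting nor the annotation release is given in the sources used here, so genes that overlap another gene are uncertain. RPKM times exon length in TAIR10.1 gave whole reads, within 0.1, in all 12 libraries for 99.4% of 22122 genes with at most 2000 reads. That step set the depth.

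Genes with at least 1 RPKM in at least 3 libraries were tested as log2(RPKM + 1) with limma 3.58.1 in R 4.3.3, with 1 mean per group, a mean-variance trend, 8 residual degrees of freedom, two-sided, Benjamini-Hochberg adjusted. A log2 value understates the change of low genes. A check on simulated reads drew each gene independently, so it does not cover the variation that genes share within a library here. Tables were made in Python 3.11.15 (pandas 2.3.3, numpy 2.4.6, scipy 1.17.1). Named genes were AT1G19340, the 6 smallest p in each direction with a mean of at least 5 RPKM in the highest group, since none was called, and in each list the member with the smallest p. Others were chosen after their values were seen. The 23 lists, of which 387 of 399 entries matched by name and 12 go by file name or locus, and the design were chosen with earlier results of these data known. Lists are described by counts and medians, with no test. Alternatives were other pseudocounts, filters, scalings, weights and variance settings, a replicate block, the chloroplast-encoded share as a covariate, voom on recovered reads, and leaving out each library.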

Additional observations from a re-analysis of the deposited data

How the results depend on the processing

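Leaving out atdamt1 heat replicate 1 gave the only call in the interaction, AT3G01345. Without 1 library the count was 0 to 1, and genes at an unadjusted p below 0.05 numbered 359 to 1217, against 420 to 1687 under the other alternatives, the most with array weights. Pearson r was 0.906 to 0.954 without 1 library and 0.921 with array weights, and the slope 0.912 to 0.989 and 0.990 when the chloroplast-encoded share was a covariate. That covariate left 5474 calls for heat in atdamt1. Genes called by genotype in control, 2 as reported, numbered 0 with a pseudocount of 0.1, no filter, upper-quartile scaling, the covariate or voom, 1 with median-of-ratios scaling, and 0 to 2 without 1 library. After heat, 0 as reported, they numbered 2 with a pseudocount of 0.1, 1 with median-of-ratios or upper-quartile scaling, 7 with array weights, and 0 to 1 without 1 library. Of 879 values for the 34 named genes, 872 kept direction and side of the threshold, and 7 in 4 genes changed sign. AT1G19340 went to -0.39 (pseudocount of 0.1), -0.032 (median-of-ratios), -0.14 (quantile) and -0.59 (voom), and with the covariate HSP70T-2 had 0.18, BRIX1-1 0.078 and SEP3 0.15. The cause was not tested.

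Deviations of same-numbered libraries from their group means correlated from -0.425 to 0.527 between groups, so the numbers showed no pairing common to all 4 groups. Between atdamt1 control and WT control r was 0.211, 0.035 and 0.527 for replicates 1, 2 and 3. In both of these groups the chloroplast-encoded share fell from replicate 1 to replicate 3, so a link by number between control libraries remains possible. With the replicate block 0 genes were called in the interaction, 677 had an unadjusted p below 0.05, and 1 gene was called by genotype after heat.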
